A study of Drosophila melanogaster with 12 samples.

Results

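Elongating RNA Polymerase II, the form of Pol II that carries phosphate on serine 2 (S2) of its tail, was mapped by chromatin immunoprecipitation and sequencing (ChIP-seq), and the called regions were compared between cells depleted of Argonaute2 (AGO2 KD) and cells depleted of LaminB (LaminB KD). All cells were Kc167, a female Drosophila melanogaster line of embryonic hemocyte origin. They were transfected by nucleofection, with an siRNA against AGO2 (siAGO2) or a long dsRNA against LaminB (dsLaminB), and collected 3 days later. The labels give 2 replicate IP libraries per knockdown, so 4 of the 12 samples of the series enter here, and nothing says whether replicates were separate cultures. The reagent differs between the knockdowns together with the target, and the effects of reagent and target cannot be told apart. The members are protein-coding genes, 13968 in the annotation used. For each gene and library the gene body coverage, that is the share of the annotated gene lying inside called regions (%), was computed. A gene was called higher when both AGO2 KD libraries lay above both LaminB KD libraries and lower in the reverse case. This gave 10 higher and 4811 lower genes. No list of mock-treated cells was used. A lower gene may thus have lost coverage in AGO2 KD or gained it in LaminB KD, and these cannot be told apart here.

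Serine 2 of the Pol II C-terminal repeats is phosphorylated by CDK9 and CDK12 kinases as the enzyme moves away from the promoter, so this form marks elongating Pol II and is usually spread over the bodies of active genes. AGO2 is the Argonaute protein of the fly siRNA pathway and is also found in the nucleus on chromatin. LaminB, encoded by Lam, is the main intermediate filament protein lining the inner nuclear membrane, and its knockdown served in the study as a control for the specificity of effects of AGO2. A broad region reports where the IP stood above input past a threshold, so its extent depends on the signal and on how many reads were available.

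The AGO2 KD lists held 4122 and 6534 regions, against 7309 and 7122 in the LaminB KD lists. They covered 3.07 and 7.20 Mb of the genome in AGO2 KD, against 10.5 and 10.3 Mb in LaminB KD, so that the log2 length differed by −1.14 on average (pooled SD 0.61, n = 2 each, exact two-sided permutation p = 0.333, which is the lowest that this design permits). Both AGO2 KD lists lay below both LaminB KD lists, and the spread between replicates was far wider in AGO2 KD than in LaminB KD. The log2 difference was −0.53 without AGO2 KD 1 and −1.76 without AGO2 KD 2. The lists give no read counts, so the depth behind each value is unknown and no interval for counting error is given. For regions with a deposited fold enrichment from 3.0 to 3.5, the median −log10 p was 4.11 and 6.49 in the AGO2 KD lists, against 9.87 and 11.6 in the LaminB KD lists, so regions of like fold carried lower significance in AGO2 KD, most of all in AGO2 KD 1. Its part in the gene results was not tested. The hemocyte identity of the line could not be read from marker genes alone. Regions touched 9 of 12 hemocyte markers, beside 7233 of all 13968 genes and 5 of 17 markers of other cell types. Hml, srp, Pvr and ush had the highest coverage. Pxn, vkg, Col4a1, Ppn and crq had LaminB KD means of only 0.97% to 5.78%, below the 21.8% of the germ line gene vas. NimC1, eater and He had no region in any of the 4 lists.

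Coverage was compared first over all genes. Of the 13968 genes, 7233 had a region in at least 1 of the 4 lists. Coverage was higher in both AGO2 KD libraries for 10 genes (0.0716% of all genes tested, 0.138% of those with a region) and lower in both for 4811 (34.4% of all genes tested, 66.5% of those with a region). The groups overlapped for the other 2412 genes with a region. The median difference, AGO2 KD minus LaminB KD, was −15.7 percentage points over the genes with a region. A gap of at least 25 points between the groups was reached by 1201 lower genes (8.6% of all genes tested, 16.6% of those with a region) and by 0 higher genes. AGO2 KD 1 set much of the size of the difference, because without it the median was −5.84 points and 527 genes were higher, against 4814 lower.

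The lists were then reduced to the same covered length, by keeping the best-scoring regions of each list until their length reached that of AGO2 KD 1. With this choice 591 genes were higher and 1017 lower, and the median difference was 0.67 points. Of the 1201 genes with a gap of at least 25 points in the full lists, 155 were still lower and 140 were higher. In these reduced lists 8 of the 10 higher genes were still higher. Ranking by fold enrichment instead gave 622 higher and 984 lower genes, with 9 of the 10 still higher. Lower genes thus still outnumbered higher ones at the same covered length, by a smaller excess than in the full lists. The reduced lists were not alike in other ways. Ranked by score, AGO2 KD 1 kept all its 4122 regions, weak ones included, and AGO2 KD 2 kept 2031. LaminB KD kept 1521 and 1479. The median width was 438.5 and 960 bp in AGO2 KD, against 1202 and 1272 bp in LaminB KD.

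**Figure D1:**
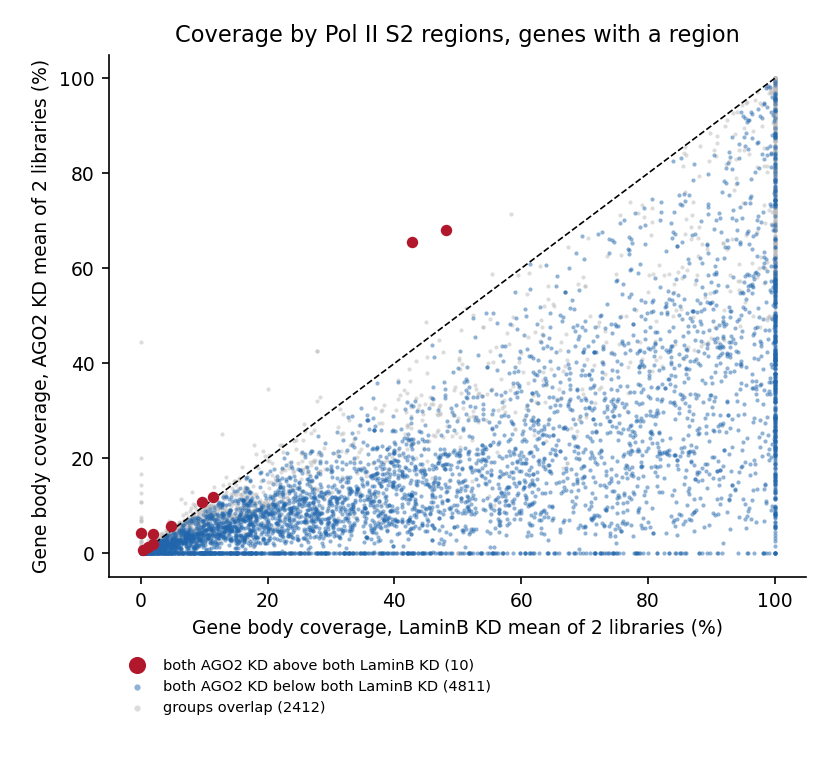
Gene body coverage of the 7233 genes with a region, with the mean of the 2 AGO2 KD libraries on the vertical axis and the mean of the 2 LaminB KD libraries on the horizontal axis (both in %). Each point is a gene, coloured by its call, and the dashed line marks equal coverage. Most genes lie below the line, and 2 of the 10 higher genes, Socs36E and CG17660, stand well above it.

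The 10 higher genes differed in how far the groups stood apart. The gap between the lowest AGO2 KD and the highest LaminB KD library was above 1 point for 3 genes, CG14196, Socs36E and CG17660, and below it for the other 7. The smallest gap, at CG7900, was 0.0091 points. Genes with a gap of exactly 0, such as CG7484, were not called. The nearest gene with a gap below 0, CG12541, had a gap of −0.0068 points.

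Socs36E, a suppressor of cytokine signaling that is both an inhibitor and a transcriptional target of the JAK-STAT pathway, lies at chr2L:18138675-18152417 on the minus strand (dm6). Its coverage was 56.3% and 80.0% in AGO2 KD, against 42.7% and 53.7% in LaminB KD. Both AGO2 KD libraries were above both LaminB KD libraries by at least 2.65 points, and the means differed by 19.9 points, at 68.1 ± 16.7% (SD, n = 2) for AGO2 KD against 48.2 ± 7.75% (SD, n = 2) for LaminB KD. The mean difference was 31.8 points without AGO2 KD 1, 8.13 points without AGO2 KD 2, and, in lists of the same covered length, 29.9 points ranked by score and 38.4 points ranked by fold enrichment. With regions of q at most 0.01 only, the mean difference was 17.2 points and the groups did not separate. Nor did they separate in the top-scoring 50% of each list, where it turned to −3.29 points.

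The extra coverage of Socs36E lay inside the gene and not at its start. Every library had a region of 2555 to 2816 bp over the gene start and another long region over the 3′ part of the gene. Between them, the segment from about 4.4 to 8.1 kb after the start was covered by a single region of 3741 bp in AGO2 KD 2 and by regions of 1440 and 300 bp in AGO2 KD 1. LaminB KD 1 had 1 region of 276 bp there, and LaminB KD 2 had regions of 1093 and 410 bp. The lncRNA gene lncRNA:CR44478 lies within this segment on the other strand, at chr2L:18145098-18145499, and ChIP-seq does not assign Pol II to a strand. The region with the highest fold at Socs36E reached 4.55 and 4.15 in AGO2 KD, against 2.69 and 2.92 in LaminB KD. These folds stood at percentiles 85.9 and 87.7 of their own AGO2 KD lists, against 48.1 and 63.1 of the LaminB KD lists.

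The highest fold of Socs36E in both AGO2 KD lists belonged to a short intronic region 3.2 to 3.5 kb after the gene start, which LaminB KD 2 also had, at a fold of 2.53, and LaminB KD 1 lacked. The 203 bp of this region in AGO2 KD 1 are printed because they hold the highest fold of Socs36E in that list. They are written 5′ to 3′ on the strand of the gene, chr2L:18148969-18149171 (minus strand, dm6), with the only match to the letters TTCNNNGAA, the core of the palindrome bound by the JAK-STAT transcription factor Stat92E, in capitals.
Socs36E intronic region: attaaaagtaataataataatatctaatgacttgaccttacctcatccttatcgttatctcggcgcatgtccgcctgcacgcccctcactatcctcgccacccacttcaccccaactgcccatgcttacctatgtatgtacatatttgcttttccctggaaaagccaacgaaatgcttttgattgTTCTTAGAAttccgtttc
These letters, which read the same on both strands, occur in 4.97% of windows of 203 bp centred on the regions of AGO2 KD 1 and in 4.84% to 5.23% for the other 3 lists. A match is a description of the sequence and not a site of binding, and this motif was chosen after the gene was seen.

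CG17660 (chr2L:1707132-1710421, minus strand) had a coverage of 45.0% and 86.3% in AGO2 KD, against 44.0% and 41.6% in LaminB KD. Only AGO2 KD 2 stood far above the LaminB KD libraries, and AGO2 KD 1 exceeded LaminB KD 1 by 1.00 point. A single region of 3617 bp ran from upstream of the gene start across most of the gene in AGO2 KD 2, whereas each of the other 3 lists had a region over the start and a separate one of 558 to 678 bp in the gene. The antisense gene asRNA:CR44976 overlaps the position of this second region, and the 2 genes cannot be told apart. The mean difference of 22.9 points was 43.5 points without AGO2 KD 1, 2.20 points without AGO2 KD 2, and −25.0 points in the top-scoring 50% of each list, where the gene was lower. The groups did not separate with regions of q at most 0.01, with the same number of regions and with the same covered length under either ranking.

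CG14196 (chrX:19236059-19241840, minus strand) was the only one of the 10 genes with a region in both AGO2 KD lists and none in either LaminB KD list. Its coverage was 2.85% and 5.64% in AGO2 KD, against 0% and 0% in LaminB KD. The regions were short, 202 and 487 bp, and sat on the gene start, spanning positions −37 to 164 bp relative to it in AGO2 KD 1 and −161 to 325 bp in AGO2 KD 2. Their folds of 3.78 and 4.43 stood at percentiles 61.8 and 91.2 of their lists. The difference of 4.25 points was the same in lists of equal length and under a stricter threshold, and vanished when the first 500 bp of the gene were left out. In the top-scoring 50% of each list the mean difference was 2.82 points and the groups did not separate.

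The further higher genes separated by small margins, several of them by shifts of a region edge. Idgf3, an imaginal disc growth factor of the secreted chitinase-like family, had a coverage of 10.3% and 11.5% in AGO2 KD, against 9.72% and 9.61% in LaminB KD. Its single region began at −57 and −47 bp relative to the gene start in AGO2 KD, against 14 and 13 bp in LaminB KD, and its fold was 7.50 and 5.44 in AGO2 KD, against 4.45 and 4.79 in LaminB KD. The fold in AGO2 KD 1 was at percentile 99.9 of that list, so this short region was among the most enriched of the library.

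alpha-Est7, a carboxylesterase, had a coverage of 3.94% and 4.25% in AGO2 KD, against 0% and 3.89% in LaminB KD. LaminB KD 1 had no region there, and LaminB KD 2 was only 0.048 points below AGO2 KD 1. The fold of the region over its start was 4.30 and 4.63 in AGO2 KD and 2.67 in LaminB KD 2. vir-1, a gene induced in flies by viral infection, showed the same arrangement with the other library absent, at 0.75% and 0.87% in AGO2 KD, against 0.74% and 0% in LaminB KD. Its region lay 1.5 to 1.7 kb after the annotated start.

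CG5835 had a coverage of 5.24% and 6.15% in AGO2 KD, against 5.04% and 4.31% in LaminB KD. These values separate, but the gap was 0.20 points. Amph, which encodes the membrane-bending protein amphiphysin, had 1.27% and 1.26% in AGO2 KD, against 1.20% and 1.18% in LaminB KD. Its region ended 234 and 231 bp after the gene start in AGO2 KD, against 220 and 217 bp in LaminB KD. CG7900 had 1.88% and 2.17% in AGO2 KD, against 1.87% and 1.84% in LaminB KD.

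**Figure D2:**
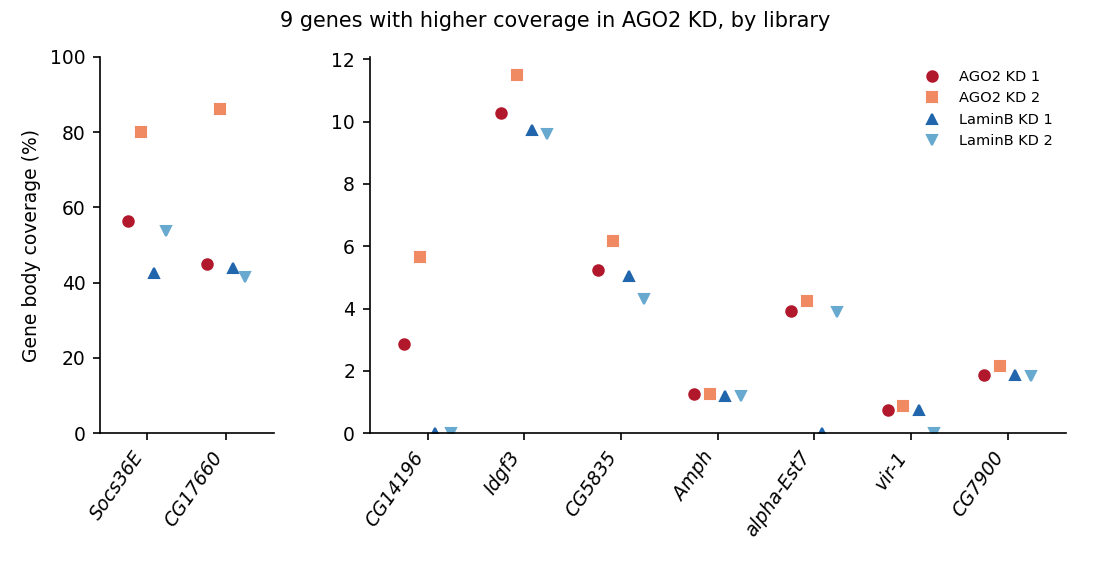
Gene body coverage (%) of 9 of the 10 genes with higher coverage in AGO2 KD, one symbol per library, AGO2 KD left of LaminB KD. The left panel holds Socs36E and CG17660 on a scale of 0 to 100% and the right panel the other 7 genes shown, of which only CG14196 has both LaminB KD libraries at 0.

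As a set, the 10 higher genes were longer and more intronic than the genes that were lower by at least 25 points. Their median length was 7447 bp, against 1935 bp for the 1201 lower genes and 2860 bp for all genes with a region. For all 4811 lower genes, called at any margin as the higher genes were, it was 2990 bp. Intron made up a median of 65.5% of the higher genes, against 9.09% of the 1201 lower genes, 16.2% of all 4811 lower genes and 17.3% of all genes with a region. Coverage is a share of length, so a gene of this length cannot reach a gap of many points from a single short region.

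The promoters of these genes were searched for 3 elements known from fly promoters, in windows from 150 bp before to the 30th base of each gene, on both strands. The letters were GAGAG for the GAGA element, ATCGATA for the core of the DNA replication-related element (DRE), and TATAAA for the TATA box. GAGAG occurred in 6 of the 10 higher genes (60.0%), in 13.5% of the 1201 genes lower by at least 25 points, in 20.1% of the genes with a region and in 20.8% of all 13968 promoters. ATCGATA occurred in 0 of the 10 higher genes, in 27.8% of the 1201 lower genes, in 25.3% of the genes with a region and in 15.5% of all promoters. TATAAA was found in 1 of the 10 higher genes, vir-1, and in 28.6% of the 1201 lower genes, beside 31.0% of all promoters. These counts describe the windows, and 10 promoters are few. The higher genes were called at any margin and the lower genes here at 25 points, and the sets differ in gene length. The part of margin and length in these shares was not tested.

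The windows of 6 genes are printed to show these letters, which stand in capitals, for 4 higher genes with a region on the gene start and 2 lower genes. All are on the strand of the gene, 5′ to 3′, in dm6 coordinates.
CG14196 (higher, chrX:19241811-19241990, minus strand): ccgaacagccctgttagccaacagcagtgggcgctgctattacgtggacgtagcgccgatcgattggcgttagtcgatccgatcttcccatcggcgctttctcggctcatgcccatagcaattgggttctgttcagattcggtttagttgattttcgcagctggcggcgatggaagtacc
Idgf3 (higher, chr2L:16450757-16450936, plus strand): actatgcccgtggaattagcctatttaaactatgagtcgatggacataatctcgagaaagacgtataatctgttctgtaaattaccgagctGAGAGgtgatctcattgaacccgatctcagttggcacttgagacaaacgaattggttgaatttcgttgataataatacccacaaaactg
alpha-Est7 (higher, chr3R:7523724-7523903, minus strand): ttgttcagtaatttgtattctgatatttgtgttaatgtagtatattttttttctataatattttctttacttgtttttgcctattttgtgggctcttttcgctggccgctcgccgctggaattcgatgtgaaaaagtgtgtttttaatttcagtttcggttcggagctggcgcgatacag
CG7900 (higher, chr3R:8093974-8094153, plus strand): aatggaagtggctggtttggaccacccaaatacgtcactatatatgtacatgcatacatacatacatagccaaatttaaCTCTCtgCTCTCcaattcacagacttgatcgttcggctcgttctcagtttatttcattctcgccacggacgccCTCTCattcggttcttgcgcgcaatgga
crn (lower, chrX:2249954-2250133, minus strand): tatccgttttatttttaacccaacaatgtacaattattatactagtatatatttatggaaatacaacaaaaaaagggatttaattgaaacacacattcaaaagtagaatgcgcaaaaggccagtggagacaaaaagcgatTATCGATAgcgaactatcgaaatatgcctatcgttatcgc
CycB3 (lower, chr3R:24870787-24870966, minus strand): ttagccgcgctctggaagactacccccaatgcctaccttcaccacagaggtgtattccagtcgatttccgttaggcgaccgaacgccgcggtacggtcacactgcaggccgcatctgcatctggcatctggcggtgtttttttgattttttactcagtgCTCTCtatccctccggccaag
CG7900 held the GAGA letters at 3 places, Idgf3 and CycB3 at 1 each, and crn held the DRE letters, read in both directions because the match overlaps its own reverse complement. CG14196 and alpha-Est7 held none of the 3.

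The 12 lower genes described here are those with the largest gap among genes of at least 2 kb that overlap no other gene. CG4806 had a coverage of 0% and 0% in AGO2 KD, against 97.0% and 99.2% in LaminB KD. CG6425 likewise had 0% and 0% in AGO2 KD, against 73.7% and 73.1% in LaminB KD. These were the 2 of the 12 genes with no region in either AGO2 KD list, as was the case for 192 of the 1201 genes with a gap of at least 25 points and for 573 of all 4811 lower genes.

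Of the other 10, LTV1, crn, dwg, Usp5 and Chi had a region in AGO2 KD 2 but none in AGO2 KD 1. LTV1, a factor for assembly of the small ribosomal subunit, had a coverage of 0% and 13.2% in AGO2 KD, against 94.0% and 100% in LaminB KD. crn, the splicing factor crooked neck, had 0% and 20.0% in AGO2 KD, against 99.2% and 99.9% in LaminB KD. dwg, a zinc finger protein of chromatin boundaries, had 0% and 23.3% in AGO2 KD, against 100% and 100% in LaminB KD. In these genes AGO2 KD 2 had a short region where that of LaminB KD covered most or all of the gene. It lay at the gene start in LTV1 and dwg, and 1.7 to 2.1 kb after it in crn. Usp5, a ubiquitin-specific protease, had 0% and 15.8% in AGO2 KD, against 91.3% and 100% in LaminB KD. Chi, a cofactor of LIM-homeodomain factors, had 0% and 12.6% in AGO2 KD, against 86.0% and 85.2% in LaminB KD.

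CycB3, a mitotic cyclin, had a coverage of 6.76% and 20.3% in AGO2 KD, against 97.3% and 97.2% in LaminB KD. Its regions in AGO2 KD 1 and LaminB KD 1 began at nearly the same place, −116 and −182 bp relative to the gene start, but ended 194 bp after the start in AGO2 KD 1 and 2803 bp after it in LaminB KD 1. AGO2 KD 2 had a region over the start that ended 326 bp after it and a second one of 259 bp near the gene end. Ctf4, a component of the replication fork, had 9.91% and 13.4% in AGO2 KD, against 87.4% and 88.9% in LaminB KD. Grasp65, a Golgi stacking protein, had 10.2% and 12.5% in AGO2 KD, against 86.7% and 88.0% in LaminB KD. CG8929 and CG7668 had 14.4% and 17.4%, and 9.58% and 7.19%, in AGO2 KD, against 100% and 100%, and 86.9% and 86.9%, in LaminB KD. In lists of the same covered length, ranked by score, CG8929, CG7668, Grasp65 and Ctf4 had positive mean differences of 4.79 to 11.7 points. A positive mean difference can come from 1 AGO2 KD library and does not make a gene higher by the rule used here. Ranked by fold enrichment, CG7668 was at −82.1 points and the other 3 were at 4.96 to 11.4 points, and CycB3 was at 9.05 points.

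Lower coverage was next located along the gene. Over the 7436 genes of at least 2 kb, 2624 and 3625 had a region over their first 500 bp in AGO2 KD, against 3972 and 3953 in LaminB KD. Only 316 and 944 had one over their last 500 bp in AGO2 KD, against 1573 and 1538 in LaminB KD. The ratio of covered ends to covered starts was 0.120 and 0.260 in AGO2 KD, against 0.396 and 0.389 in LaminB KD. On average it was 0.190 ± 0.0990 for AGO2 KD (SD, n = 2) against 0.393 ± 0.0049 for LaminB KD (SD, n = 2), which differ by −0.20 (pooled SD 0.070, exact two-sided permutation p = 0.333, again the lowest possible). Both AGO2 KD libraries lay below both LaminB KD libraries, so gene ends were covered less often relative to gene starts. The difference was −0.13 without AGO2 KD 1 and −0.27 without AGO2 KD 2. In lists of the same covered length it was −0.13 ranked by score and −0.11 ranked by fold enrichment.

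Of the 1201 genes with a gap of at least 25 points, 561 were at least 2 kb long. These genes were chosen by their coverage, so the following values describe them without a test. A region over the first 500 bp was present in both AGO2 KD libraries for 351 (62.6%), against 535 (95.4%) in both LaminB KD libraries. A region over the last 500 bp was present in both AGO2 KD libraries for 30 (5.35%), against 353 (62.9%) in both LaminB KD libraries. The start had a region in 351 and 498 of the 561 genes in AGO2 KD 1 and AGO2 KD 2, so AGO2 KD 1 set the first share, which was 88.8% without it. At 116 genes (20.7%) both AGO2 KD libraries had a region over the start and neither had one over an end that was covered in both LaminB KD libraries. Only 32 of the 561 (5.70%) had no region in either AGO2 KD list.

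The same picture appeared base by base over the 263 of these genes that overlap no other gene. In the first twentieth of the gene, 56.3% and 82.1% of bases lay inside regions in AGO2 KD, against 89.5% and 89.1% in LaminB KD. In the tenth bin, near the middle, it was 2.26% and 12.8% in AGO2 KD, against 74.1% and 74.4% in LaminB KD. In the last bin it was 3.88% and 14.7% in AGO2 KD, against 41.2% and 38.1% in LaminB KD. AGO2 KD coverage thus lay mostly over the first part of these genes, whereas LaminB KD coverage extended across them. Over the 1853 other genes with a region, selected in the same way but for the gap, the first bin had 39.3% and 63.5% in AGO2 KD, against 70.3% and 70.5% in LaminB KD, and the last bin 3.28% and 10.8%, against 17.8% and 16.4%.

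**Figure D3:**
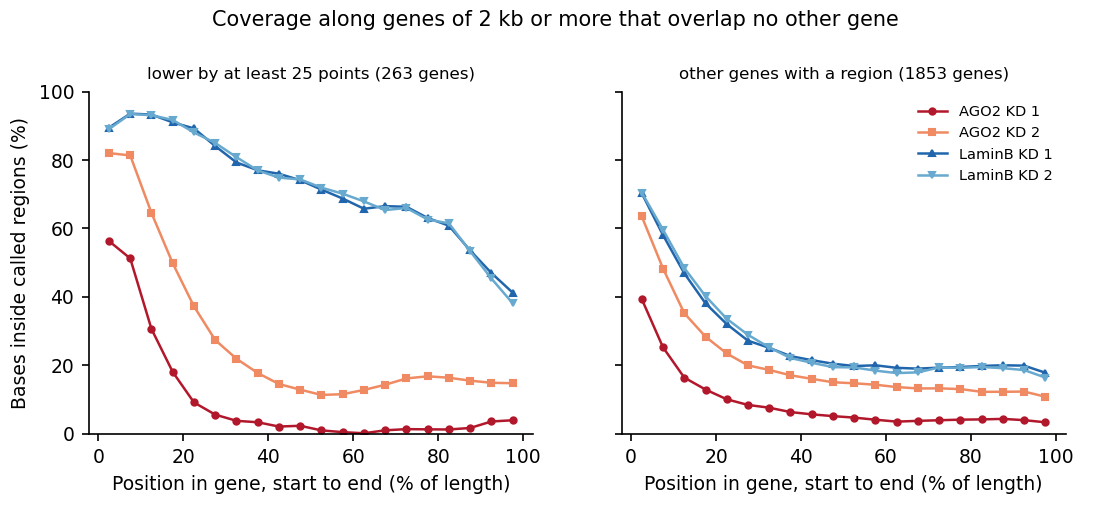
Share of bases inside called regions (%) in 20 bins from gene start to gene end, for genes of at least 2 kb that overlap no other gene. Lines are single libraries. The 263 genes lower by at least 25 points are on the left, and the 1853 other genes with a region on the right. In AGO2 KD the lines drop early in the genes on the left, to 2.26% and 12.8% in the tenth bin, against 74.1% and 74.4% in LaminB KD.

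The share of genes with a wide gap depended on gene length. Of genes with a region, 18.9% of those under 1 kb, 27.7% of those of 1 to 2 kb and 19.8% of those of 2 to 5 kb were lower by at least 25 points. This compares with 7.01% at 5 to 10 kb and 0.715% at 10 kb or more, where a region rarely fills the gene in any library. By chromosome arm the share was 14.7% to 19.1% on 2L, 2R, 3L, 3R and X. On the small chromosome 4 it was 0 of 41 genes, although 31 of these 41 were lower by some margin. Many of the 1201 genes share their regions with a neighbor, since 651 overlap another annotated gene and the 1201 genes were touched by 1249 and 1225 regions of the LaminB KD lists, 224 and 226 of which touched more than 1 of them.

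Genes that were filled in LaminB KD were divided in AGO2 KD. Both LaminB KD libraries covered at least 90% of 1474 genes. Both AGO2 KD libraries reached 90% at 339 of these. AGO2 KD 2 did so at 916 and AGO2 KD 1 at 340, so nearly every gene that AGO2 KD 1 filled was also filled in AGO2 KD 2. There were 0 genes filled in both AGO2 KD libraries and not in both LaminB KD libraries. The 339 genes filled in every library had a median length of 1130 bp.

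Pol II S2 at the genes targeted by the knockdowns was also read. RNA interference acts on the transcript, so these values do not check the knockdown. AGO2 (chr3L:15554113-15561042) had a coverage of 4.39% and 18.4% in AGO2 KD, against 59.4% and 58.2% in LaminB KD. Both AGO2 KD libraries were lower by at least 39.9 points, and the mean difference was −47.4 points. A region over the gene start was present in all 4 libraries. The 3′ part of AGO2 had a region of 4256 and 3796 bp in LaminB KD and of 723 bp in AGO2 KD 2, and none in AGO2 KD 1. In LaminB KD this region ran past the end of AGO2 into the convergent gene CG7739, which overlaps it, so its Pol II may belong to either gene. The difference was −1.70 points in lists of the same covered length.

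Lam (chr2L:5542480-5546642) had a coverage of 24.6% and 77.6% in AGO2 KD, against 82.3% and 79.4% in LaminB KD. AGO2 KD 2 lay 1.85 points under LaminB KD 2 and AGO2 KD 1 far below, so AGO2 KD 1 set the mean difference of −29.7 points, which was −3.27 without it and −56.2 without AGO2 KD 2. In lists of the same covered length it was 12.3 points ranked by score and −25.1 points ranked by fold enrichment.

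Gene lists were described by how many of their members separated, beside the 66.5% of genes with a region that were lower overall. By score rank at the same covered length, 591 genes were higher and 1017 lower of 4794 with a region. By fold rank these were 622 and 984 of 4963. In most lists fewer members had a region in these reduced lists. Over all genes, 527 were higher and 4814 lower without AGO2 KD 1, and 11 and 6503 without AGO2 KD 2. The counts were 27 and 5376 without LaminB KD 1, and 35 and 5412 without LaminB KD 2. The small RNA pathway was touched by regions at 22 of 28 genes. Of these 19 were lower, 5 of them by at least 25 points, and 0 were higher, with a median difference of −18.7 points beside −15.7 over all genes. The median LaminB KD coverage of this list was 41.4%. Over all genes with a LaminB KD mean of 25 to 50%, the median difference was −23.7 points. In that class 84.4% of genes were lower, beside 86.4% of the members of this list with a region. trsn, a subunit of the C3PO nuclease that activates the siRNA-loaded complex, had a coverage of 0% and 8.54% in AGO2 KD, against 100% and 65.6% in LaminB KD. The siRNA genes Dcr-2, which cuts long dsRNA, and r2d2, its partner in loading AGO2, were also lower. Dcr-2 had 6.49% and 30.9% in AGO2 KD, against 48.6% and 46.3% in LaminB KD. r2d2 had 0% and 22.6% in AGO2 KD, against 57.4% and 39.3% in LaminB KD. AGO1, the Argonaute of the miRNA pathway, had 6.05% and 10.5% in AGO2 KD, against 23.2% and 21.1% in LaminB KD. The members with the smallest difference were AGO3, where the groups overlapped between 0% and 0.50%, and del, which was filled to 98.0% and 98.7% in AGO2 KD and 99.0% in both LaminB KD libraries. In lists of the same covered length ranked by score, 15 members had a region, of which 2 were higher and 4 lower. Ranked by fold enrichment, 16 had a region, of which 1 was higher and 3 lower.

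Genes for the nuclear lamina and envelope had regions at all 11 members, of which 6 were lower, 2 of them by at least 25 points, and 0 higher, with a median of −14.0 points. MAN1, an inner nuclear membrane protein, had a coverage of 0% and 0% in AGO2 KD, against 42.1% and 61.7% in LaminB KD. LamC, the other fly lamin, had 23.9% and 36.6% in AGO2 KD, against 72.8% and 69.4% in LaminB KD. Torsin was filled in all 4 libraries. Without AGO2 KD 2, 10 members were lower. With the same covered length, 10 members had a region under either ranking. Of these, 0 were higher and 4 lower by score rank, and 1 was higher and 3 lower by fold rank.

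Factors of pausing and elongation, which set how Pol II leaves the promoter, had regions at all 26 matched members. Of these 17 were lower, 5 of them by at least 25 points, and 0 were higher, with a median of −29.3 points. The median LaminB KD coverage of this list was 56.3%. Over all genes with a LaminB KD mean of 50 to 75%, the median difference was −39.6 points. In that class 85.5% of genes were lower, beside 65.4% of the members of this list with a region. Atu, a subunit of the Paf1 elongation complex, had a coverage of 6.27% and 49.9% in AGO2 KD, against 98.1% and 97.3% in LaminB KD. Cdk9, the kinase that phosphorylates serine 2, had 0% and 16.9% in AGO2 KD, against 100% and 50.4% in LaminB KD. Of the NELF pausing complex, Nelf-A had 4.60% and 13.3% in AGO2 KD, against 35.7% and 68.5% in LaminB KD. Nelf-E had 1.81% and 8.62% in AGO2 KD, against 11.8% and 28.9% in LaminB KD. TH1, another NELF subunit, overlapped between groups, at 0% and 53.4% in AGO2 KD, against 80.9% and 52.7% in LaminB KD. Spt5, which binds NELF, likewise overlapped, and lilli had the highest mean difference of the list, 0.25 points with overlapping groups. Without AGO2 KD 1, 1 member was higher. In lists of the same covered length, 21 members had a region under either ranking. Ranked by score, 3 of these were higher and 4 lower, and ranked by fold enrichment 5 were higher and 3 lower.

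Of 13 JAK-STAT genes with a region, 8 were lower, 0 by at least 25 points, and 1, Socs36E, was higher, with a median of −8.12 points. The kinase hop had a coverage of 13.8% and 36.2% in AGO2 KD, against 69.9% and 56.6% in LaminB KD. Stat92E, the transcription factor of the pathway, had 11.4% and 29.5% in AGO2 KD, against 29.7% and 32.8% in LaminB KD. Socs44A, a relative of Socs36E, had 0% and 42.8% in AGO2 KD, against 99.6% and 65.4% in LaminB KD, the lowest mean difference of the list. The cytokine gene upd3 overlapped between groups, at 1.52% and 6.34% in AGO2 KD, against 1.24% and 3.37% in LaminB KD. Without AGO2 KD 1, 5 members were higher, and without LaminB KD 2, 2 were. With the same covered length, 11 members had a region under either ranking. Of these, 5 were higher and 3 lower by score rank, and 3 were higher and 2 lower by fold rank.

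Of 11 JNK genes with a region, 6 were lower, 0 were higher, and the median was −6.31 points. The kinase Mkk4 had 5.41% and 6.90% in AGO2 KD, against 27.9% and 30.7% in LaminB KD. The adaptor Traf4 had 1.45% and 3.97% in AGO2 KD, against 4.34% and 6.67% in LaminB KD. The highest mean difference of this list was that of egr, the ligand of the pathway, at −0.42 points with overlapping groups. Without AGO2 KD 1, 3 members were higher, and without AGO2 KD 2, 11 were lower. At equal covered length, 9 JNK members had a region by score rank, of which 1 was higher and 4 lower. By fold rank 10 had a region, of which 4 were higher and 2 lower. Of 14 BMP genes with a region, 8 were lower, 0 were higher, and the median was −3.15 points. The ligand gbb had the widest gap, with 8.13% and 17.0% in AGO2 KD, against 83.6% and 89.3% in LaminB KD. At the ligand dpp, only AGO2 KD 2 had a region, with a coverage of 0.47%. The BMP-binding protein gene cv-2 overlapped, at 0.91% and 1.17% in AGO2 KD, against 1.08% and 1.21% in LaminB KD. Without AGO2 KD 1, 3 BMP members were higher. With the same covered length, 10 BMP members had a region by score rank, of which 1 was higher and 3 lower. By fold rank 11 had a region, of which 0 were higher and 3 lower.

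Of 13 ecdysone response genes with a region, 8 were lower, 0 by at least 25 points, and 0 were higher, with a median of −1.40 points at a median length of 60654 bp. usp, the partner of the ecdysone receptor, had the lowest difference, with 18.4% and 75.4% in AGO2 KD, against 83.9% and 82.8% in LaminB KD. The nuclear receptor gene Hr4 had the highest, −0.09 points, with overlapping groups. The clock gene vri, named with the examples of the study, overlapped too, at 0.75% and 11.9% in AGO2 KD, against 5.24% and 6.66% in LaminB KD. Without AGO2 KD 1, 4 ecdysone genes were higher, and without AGO2 KD 2, 12 were lower. At equal covered length, 9 ecdysone genes had a region under either ranking. Of these, 4 were higher and 3 lower by score rank, and 3 were higher and 2 lower by fold rank.

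Ribosomal protein genes are short and heavily transcribed, and most were filled in every library. Of 82 cytoplasmic ribosomal protein genes with a region, 17 were lower (20.7%), 2 of them by at least 25 points, and 0 higher, with a median difference of 0.00 points. At 54 of them all 4 libraries covered at least 90% of the gene, and at 75 both LaminB KD libraries did. RpS15Ab, whose reads can be shared with a second copy of RpS15A, had a coverage of 0% and 27.1% in AGO2 KD, against 100% and 100% in LaminB KD. RpL26 had 50.1% and 64.1% in AGO2 KD, against 100% and 90.2% in LaminB KD. Without AGO2 KD 2, 39 members were lower. With the same covered length, 82 ribosomal protein genes had a region under either ranking. Of these, 2 were higher and 16 lower by score rank, and 2 were higher and 17 lower by fold rank. Over all genes these counts were 591 and 1017 of 4794 by score rank, and 622 and 984 of 4963 by fold rank.

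Of 18 heat shock and chaperone genes, 8 were lower, 0 by at least 25 points, and 0 higher, with a median of −2.45 points. Hsp23, Hsp26, Hsp68, DnaJ-1 and Hsc70-4 were filled in every library. Hsp67Ba was filled in AGO2 KD 2 and both LaminB KD libraries and had no region in AGO2 KD 1, the lowest mean difference of the list at −50.0 points with overlapping groups. The 5 Hsp70 copies were all lower by small margins, such as Hsp70Aa with 1.81% and 1.72% in AGO2 KD, against 4.58% and 4.32% in LaminB KD, but near-identical copies lose multimapping reads and their values are uncertain. Without AGO2 KD 2, 13 members of the list were lower. With the same covered length, 18 members had a region, of which 1 was higher and 5 were lower under either ranking.

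Of 9 actin and tubulin genes with a region, 4 were lower, 1 of them by at least 25 points, and 0 higher, with a median of −1.66 points. Act42A and alphaTub84B were filled in every library. alphaTub84D had a coverage of 0% and 8.43% in AGO2 KD, against 40.5% and 69.8% in LaminB KD. betaTub60D overlapped, at 3.67% and 10.1% in AGO2 KD, against 4.23% and 11.1% in LaminB KD. With the same covered length, 6 actin and tubulin genes had a region, of which 0 were higher and 2 lower under either ranking.

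Of 9 hemocyte markers with a region, 7 were lower, 1 of them by at least 25 points, and 0 higher, with a median of −3.25 points. Hml, the plasmatocyte gene hemolectin, had a coverage of 0% and 10.3% in AGO2 KD, against 61.8% and 42.5% in LaminB KD. srp, the GATA factor of blood cells, had 20.2% and 47.3% in AGO2 KD, against 53.9% and 49.2% in LaminB KD. crq, a scavenger receptor, had the highest difference, −0.05 points, with overlapping groups. Markers of neurons, glia, muscle, germ line, fat body and photoreceptors were touched at 5 of 17 genes, of which 1, the germ line gene vas, was lower. Without AGO2 KD 2 or without LaminB KD 1, 3 of these were lower, and 2 without LaminB KD 2. Without AGO2 KD 1, 1 hemocyte marker and 1 of these other markers were higher. At equal covered length, 9 hemocyte markers had a region under either ranking. Of these, 0 were higher and 3 lower by score rank, and 2 were higher and 4 lower by fold rank. Fewer cells of a type and less Pol II per cell cannot be told apart in these bulk samples.

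**Figure D4:**
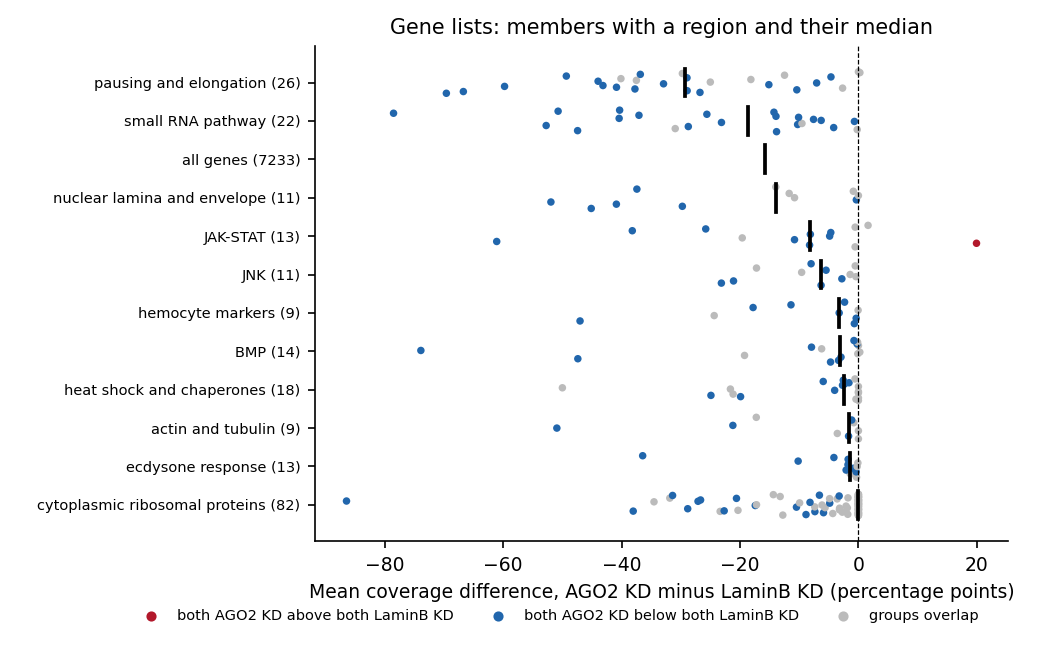
Mean difference in coverage, AGO2 KD minus LaminB KD (percentage points), for the members of each list that had a region (number in brackets). Points are genes, coloured by call, with their vertical spread only for legibility, and the black bars are medians, also given for all 7233 genes. The median is −29.3 points for pausing and elongation factors and 0.00 points for ribosomal proteins, and Socs36E is the single red point, at 19.9. The lists differ in their coverage in LaminB KD, which was not matched here.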

How the data were processed

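Per the labels, Kc167 cells were treated with siAGO2 or dsLaminB. The submitters' processing notes name cutadapt 1.10, Bowtie2, Picard 2.11.0 and MACS2 2.1.1.20160309 and the dm6 genome; broad regions were called per replicate against input, and which input entered each call was not given in the sources used here. Only the 4 IP lists of the knockdowns were used. The 6 inputs and the mock lists were not used here. The deposited lists give region positions, a score (10 times −log10 q), the fold enrichment, which is the ratio of IP to expected background, and −log10 p and −log10 q, all as the authors deposited them. They hold no read counts. Within a list, regions were ranked or filtered by score, fold or −log10 q, and −log10 p described each library.

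Coverage was computed with Python 3.11.15, numpy 2.4.6 and pandas 2.3.3 over protein-coding genes of Ensembl release 115 on 7 chromosome arms, and the interval code was tested on simulated data. Sequences are from the RefSeq release 6 assembly. An exact permutation test, two-sided (scipy 1.17.1), served for values of whole libraries and cannot pass 0.05 with 2 against 2. The members, gene lists and rules were chosen with earlier results of these data known. The genes named are up to 20 higher and the 12 non-overlapping lower genes with the largest gap, 8 example genes (AGO2, Lam, Socs36E, Traf4, cv-2, betaTub60D, vri and CG14196), and the members of each list with the highest and lowest difference; other members were picked for their role. Of the 10 higher genes, 9 are described, and 1 is not reported here. Nelf-B, Eip71CD and nos were not matched by symbol. Alternatives were other margins, reduced or stricter lists, joined regions, other gene sets or gene parts, ranks, each library left out, and a replicate block.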

Additional observations from a re-analysis of the deposited data

How the results depend on the processing

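The count of 10 higher genes became 0 with a margin of 10 or 25 points and 56 with the same number of regions per list. It was 591 and 622 with the same covered length per list (ranked by score and by fold enrichment). It was 6 among genes that overlap no other gene, 5 without the first 500 bp and 3088 with ranks of coverage. Genes tied at 0 rank higher in the AGO2 KD lists, which touch fewer genes, than in the LaminB KD lists. Their share of the 3088 was not tested. Leaving out each library in turn gave 11 to 527 higher and 4814 to 6503 lower genes. The count of 4811 lower genes became 2330 and 1201 with margins of 10 and 25 points, 1017 and 984 with the same covered length, 3178 in the top-scoring 50% of each list, 2170 among genes that overlap no other gene and 1355 with ranks. Joining regions at most 500 bp apart changed nothing, since the smallest gap between regions is 589 bp in every list. The median difference of −15.7 points was 0.67 and 0.33 with the same covered length and −21.9 to −5.84 with each library left out. The log2 ratio of covered length and the end-to-start difference kept their sign under every alternative run for them. The share of genes lower by at least 25 points with a region over their start in both AGO2 KD libraries was 62.6% as reported. It was 33.6% when only the top-scoring 50% was used and 46.7% with q at most 0.01. With the same covered length it was 56.25% ranked by score and 44.6% ranked by fold enrichment. It was 59.6% to 88.8% with each library left out. The causes of these changes were not tested beyond what each choice removes.

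Among 28 single genes followed under 11 alternatives, 9 of those with separated groups changed sign at least once, and so did cv-2, betaTub60D and vri, whose groups overlapped. With the same covered length ranked by score, the mean difference was 7.21 points for CG8929, 4.79 for CG7668, 11.4 for Grasp65, 11.7 for Ctf4 and 12.3 for Lam. Ranked by fold enrichment it was 7.21 for CG8929, 9.05 for CycB3, 11.4 for Grasp65 and 4.96 for Ctf4. With the same number of regions it was −2.49 for CG17660 and 6.28 for Chi. In the top-scoring 50% it was −3.29 for Socs36E, −25.0 for CG17660 and 11.7 for Ctf4. The gene lists were followed under the same alternatives, a choice made after seeing the data.

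With a replicate block, which asks both same-numbered pairs of libraries to differ in 1 direction, 19 genes were higher and 5160 lower. Whether the numbers pair the samples is not known. The deviations of same-numbered libraries from their group means had an r of −0.041 over 7233 genes. With 2 libraries per group this value cannot decide whether they were processed together. Depth is unknown, each group has 2 libraries, AGO2 KD 1 covered the least and had the lowest −log10 p at like fold, and coverage cannot exceed 100%, so no difference could appear at genes with 100% in all 4 libraries.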

Other observations

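Taken on its own, AGO2 KD 2 lay above both LaminB KD libraries at 527 genes, and by at least 10 points at 33, of which 17 had no region in AGO2 KD 1 and 12 had none in either LaminB KD library as well. Taken on its own, AGO2 KD 1 did so at 11 genes. The genes named here were chosen after their values were seen, and 1 library gives no replicate check. CG7484 had a coverage of 0% and 89.1% in AGO2 KD, against 0% and 0% in LaminB KD. BNIP3, a mitophagy factor, had 4.69% and 59.7% in AGO2 KD, against 27.8% and 27.6% in LaminB KD. REG, a proteasome activator, had 46.0% and 96.8% in AGO2 KD, against 58.3% and 58.4% in LaminB KD. Mmp1, a matrix metalloproteinase, had 3.36% and 19.6% in AGO2 KD, against 7.13% and 5.49% in LaminB KD. lin-28, an RNA-binding protein that restrains let-7 processing, had 7.80% and 18.2% in AGO2 KD, against 8.06% and 7.95% in LaminB KD. In each of these 5 genes the AGO2 KD replicates lay on opposite sides of at least 1 LaminB KD library or at its level, and the groups overlapped.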
